A study of Mus musculus with 54 samples.

Results

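Early proximal tubules of diabetic Akita mice given semaglutide were compared with those of non-diabetic mice given vehicle, to ask what still differed from healthy tubules after treatment. The 2 groups held 5 samples each, 10 of the 48 samples in the deposited table. All genes with a TPM of 1 or more (transcript abundance as a share of its library, on a scale with a fixed total) in at least 5 of the 48 samples were tested, 12742 of 55487 rows. Each sample pooled 70 to 80 SGLT2-stained tubules, taken by laser from kidney sections for total RNA sequencing. No gene passed the threshold (limma, Benjamini-Hochberg adjusted p under 0.05), so no difference below counts as a call unless it is named as one.

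All mice were DBA males aged 14 weeks, and those of the next 4 groups had intact Sglt1. The semaglutide group (samples 2 to 6) carried Ins2 Akita/+ and received 3 nmol of the drug per kg body weight daily under the skin for 2 weeks. Akita vehicle mice (samples 1 to 6) had the same genotype and received vehicle. Akita dapagliflozin mice (5 samples), again of that genotype, received the SGLT2 inhibitor at 10 mg per kg diet for 2 weeks. Non-diabetic vehicle mice (samples 1 and 3 to 6) were Ins2+/+ littermates that also received vehicle. Sglt1 knockout mice on vehicle, 6 samples with Ins2 Akita/+ and 5 without it, served to rank genes for 1 comparison below. The remaining groups, dapagliflozin given to non-diabetic mice or to knockouts, entered the fit for its estimate of spread. The labels list no non-diabetic group given semaglutide, so the drug and the diabetic background cannot be told apart in the distance from healthy tubules. They do not tie samples to animals either, so that the p-values reflect sample-to-sample spread alone, part of which may be technical.

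The early proximal tubule reclaims most of the filtered glucose, through the sodium-glucose cotransporter SGLT2 on the urine side and the carrier GLUT2 on the blood side. Akita mice carry a mutation that makes insulin misfold in the beta cell, which leaves them short of insulin. Semaglutide activates the GLP-1 receptor, which is known for enhancing insulin release, slowing gastric emptying and reducing food intake. The male mouse proximal tubule expresses many androgen-controlled genes, among them Kap, and these are known to depend on circulating testosterone.

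The labelled tissue was checked first. Slc5a2, which encodes SGLT2, averaged 177 ± 43.9 TPM in semaglutide Akita, 193 ± 30.6 in Akita vehicle and 177 ± 53.1 in non-diabetic vehicle tubules (SD, n = 5, 6 and 5). Its log2 difference between semaglutide Akita and non-diabetic vehicle was 0.01, with a 95% interval of −0.54 to 0.56. Lrp2 and Cubn, the endocytic receptors megalin and cubilin, averaged 136 and 29.6 TPM in semaglutide Akita tubules (both chosen after their values were seen). Slc5a1, the intact Sglt1 gene, lay at 1.43, 0.989, 1.74, 2.76 and 3.47 TPM in semaglutide Akita, against 2.92, 4.29, 2.27, 1.69 and 0.996 TPM in non-diabetic vehicle samples, so the groups overlapped. Glp1r, the receptor of the drug, was at 0.188 TPM or below in all 16 libraries of the 3 groups and was not tested.

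The promoters of Apob, Kap and Txndc16 are shown because results below turn on them. Apob lay farthest above the non-diabetic level among the genes ranked by p, Kap is the best-known androgen-controlled gene of this tissue, and Txndc16 had the lowest p. The 250 bases upstream of each RefSeq start site (GRCm38.p6) are chr12:7977427-7977676 on the plus strand for Apob, chr6:133853668-133853917 on the minus strand for Kap and chr14:45219426-45219675 on the minus strand for Txndc16. They read 5′ to 3′, and capitals mark TATAAA in the first pair and TGTTCT, the reverse complement of AGAACA, in Txndc16. By the GENCODE positions used to annotate the rows, the Txndc16 stretch lies inside the gene, whose start is at 45220328. The Apob and Kap stretches overlap their genes at the 3′ end of the stretch.
Apob: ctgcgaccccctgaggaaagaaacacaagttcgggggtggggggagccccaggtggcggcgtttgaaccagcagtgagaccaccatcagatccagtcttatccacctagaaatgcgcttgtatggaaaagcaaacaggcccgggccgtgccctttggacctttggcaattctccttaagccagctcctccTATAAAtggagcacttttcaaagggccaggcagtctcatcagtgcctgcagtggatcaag
Kap: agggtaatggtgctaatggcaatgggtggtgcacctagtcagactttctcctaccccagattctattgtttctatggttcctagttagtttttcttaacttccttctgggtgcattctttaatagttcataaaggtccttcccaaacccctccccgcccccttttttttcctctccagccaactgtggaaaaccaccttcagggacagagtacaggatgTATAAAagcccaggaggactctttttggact
Txndc16: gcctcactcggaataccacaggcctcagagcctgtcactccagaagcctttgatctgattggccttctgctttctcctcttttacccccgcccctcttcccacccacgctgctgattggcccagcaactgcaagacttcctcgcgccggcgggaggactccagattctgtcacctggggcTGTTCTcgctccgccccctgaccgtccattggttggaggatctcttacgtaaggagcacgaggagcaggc
The motifs were searched on both strands. TATAAA was present in 6.24% of the 8467 promoters of tested genes in 4 of 16 promoters of the androgen-controlled list and in 8 of 27 of the antigen presentation and interferon list. AGAACA, part of the androgen receptor's element, was present in 10.6% of all promoters, in 2 of those 16 and in 3 of those 27. The full element, AGAACA, any 3 bases and its reverse complement, was in 1 of the 8467 and in 0 of either list. A match is a description of letters only.

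Over all genes, the median difference of semaglutide Akita from non-diabetic vehicle tubules on the log2(TPM + 1) scale was −0.02, with quartiles of −0.17 and 0.13. With 5 samples a side, the median 95% interval reached 0.53 to either side of a gene's value. A p that misses the threshold therefore does not show that a gene was alike in both groups. Of the 12742 genes, 0 were called by limma and 338 had an unadjusted p under 0.05 (2.65%), 126 higher (0.989%) and 212 lower (1.66%) in semaglutide Akita. That number depended on scaling: it was 624 with median-of-ratios scaling, quantile normalization or rescaling to nuclear protein-coding genes, with 290 higher and 334 lower in the first and 330 higher and 294 lower in each of the others. Under other scalings, pseudocounts, filters and covariates, and without single samples, 0 or 1 gene was called. Values of the semaglutide group lay all above those of the non-diabetic group in 23 genes (0.181%) and all below in 40 (0.314%). With 5 against 5 samples, chance alone separates the groups of a gene in either direction with a probability of 0.00794. The shares together lie below it, so no overlap in a gene is a description. The 2.65% is likewise under the share that even p-values would give.

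The same fit gave the untreated distance. Akita vehicle tubules differed from non-diabetic vehicle tubules in 3 called genes (0.0235%), and 969 genes had an unadjusted p under 0.05 (7.6%), 76 higher (0.596%) and 893 lower (7.01%). Calls numbered 0 to 12 under the alternatives, 0 with no filter or without non-diabetic samples 1, 3 or 6 or Akita vehicle sample 6, and 12 with median-of-ratios scaling. The genes at an unadjusted p under 0.05 numbered 661 with the capture number as a covariate, 615 without Akita vehicle sample 2 and 1461 without its sample 1. Their direction depended on scaling, with 475 higher and 588 lower under median of ratios. Values of Akita vehicle lay all above the non-diabetic ones in 8 genes (0.0628%) and all below in 83 (0.651%). Akita vehicle was lower in 74.3% of genes and higher in 25.7%, with a median difference of −0.15. It became −0.00 once libraries were scaled by median of ratios, but that scaling centres the median by construction, here and below. Semaglutide Akita set directly against Akita vehicle gave 0 calls. There, 742 genes had an unadjusted p under 0.05 (5.82%), 663 higher (5.2%) and 79 lower (0.62%), and the median was 0.13, or 0.00 with median-of-ratios scaling. With that scaling 922 genes passed, 471 higher and 451 lower. The 742 became 412 with the capture number as a covariate, 411 without semaglutide sample 6, 478 without semaglutide sample 5 and 1164 without Akita vehicle sample 1. Samples did not overlap in 47 genes higher (0.369%) and 4 lower (0.0314%) in semaglutide Akita. The 2 distances share the non-diabetic samples. Only the direct comparison tests their difference, and it called no gene.

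**Figure D1:**
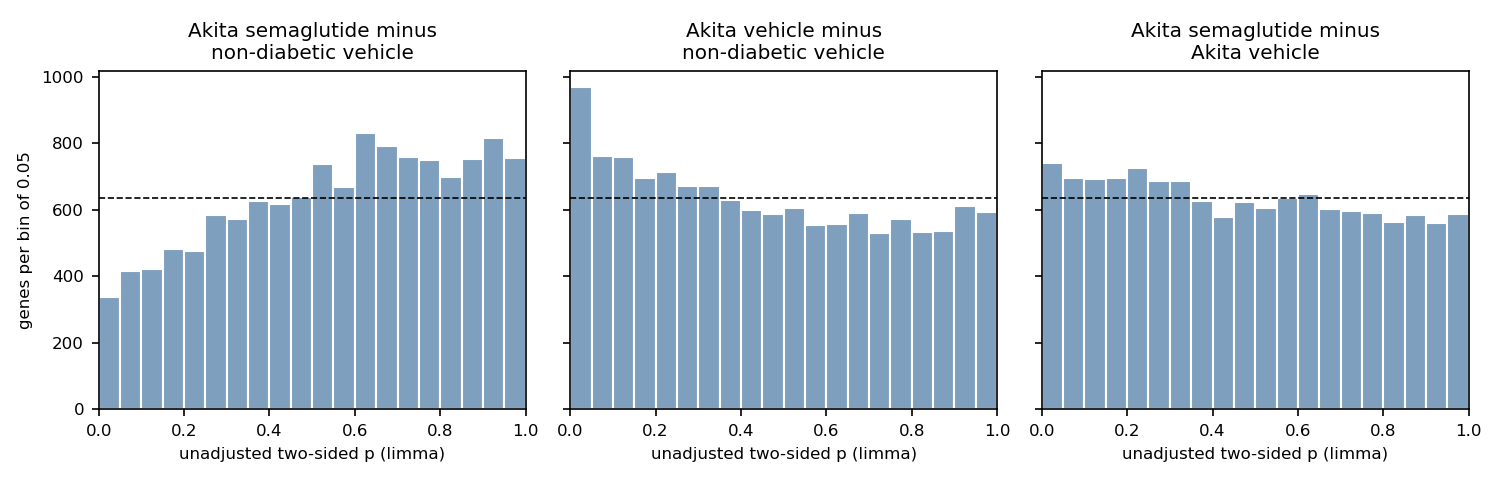
Histograms of the unadjusted two-sided p of 12742 genes in bins of 0.05, for semaglutide Akita minus non-diabetic vehicle, Akita vehicle minus non-diabetic vehicle and semaglutide Akita minus Akita vehicle. The dashed line marks the bin height that even p-values would give, and the lowest bins hold 338, 969 and 742 genes.

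Apob, the structural protein of lipoproteins (chromosome 12, 7977648 to 8016835, GRCm38), lay above the non-diabetic range in every semaglutide sample. It lay at 14.3, 2.39, 9.07, 2.46 and 5.3 TPM in semaglutide Akita, at 13.4, 4.21, 11.2, 9.16, 6.47 and 13.5 TPM in Akita vehicle, and at 2.02, 1.26, 0.944, 1.6 and 2.17 TPM in non-diabetic vehicle samples. Semaglutide samples 3 and 5 came close to the highest non-diabetic sample, samples 4 and 6 lay in the range of Akita vehicle, and sample 2 lay above it. The log2 difference of semaglutide Akita from non-diabetic vehicle was 1.34 ± 0.39 (SE; interval 0.55 to 2.13; unadjusted p = 0.00134, adjusted p = 1, limma). Apob rose in Akita vehicle by 1.97 ± 0.38 (adjusted p = 0.0242), a call lost with no filter on low values, without any 1 of the 5 non-diabetic samples and without Akita vehicle sample 6. Between semaglutide Akita and Akita vehicle the difference was −0.63, with an interval of −1.39 to 0.13.

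Adam11, a catalytically inactive member of the ADAM family, and Npl, N-acetylneuraminate lyase of sialic acid breakdown, had the same order of means. Adam11 lay at 4.66, 11.8, 14.9, 4.94 and 12.2 TPM in semaglutide Akita, between 7.15 and 21.8 TPM in Akita vehicle and at 4.76, 4.08, 1.05, 2.76 and 5.58 TPM in non-diabetic vehicle samples. Semaglutide samples 3, 4 and 6 were above the whole non-diabetic range and 2 were inside it. Its log2 difference from non-diabetic vehicle was 1.19 ± 0.39 in semaglutide Akita and 1.72 in Akita vehicle (limma adjusted p = 1 and 0.063). Npl averaged 3.1 ± 2.04, 3.98 ± 1.1 and 1.39 ± 0.206 TPM in semaglutide Akita, Akita vehicle and non-diabetic vehicle tubules (SD, n = 5, 6 and 5). Its semaglutide values split as those of Apob did, with samples 3 and 5 at 0.822 and 1.47 TPM, no higher than the highest non-diabetic sample, and samples 2, 4 and 6 above them.

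Car3 was the called gene that was lower in Akita vehicle tubules. It encodes carbonic anhydrase 3 (chromosome 3, 14863512 to 14872523). It lay at 1.52, 3.15, 0.555, 9.29 and 1.91 TPM in semaglutide Akita, at 0.444, 0, 0.186, 0.858, 0.134 and 0.607 TPM in Akita vehicle, and at 5.69, 8.01, 1.68, 13.9 and 6.15 TPM in non-diabetic vehicle samples. The semaglutide values spanned the gap between the other groups and overlapped both. Its difference from non-diabetic vehicle was −1.03 ± 0.49 in semaglutide Akita (interval −2.02 to −0.04; limma adjusted p = 1) and −2.39 ± 0.47 in Akita vehicle (adjusted p = 0.0316). That call was lost with no filter, with capture number as a covariate, without non-diabetic samples 1, 3, 5 or 6 and without Akita vehicle samples 2, 3, 5 or 6. Set directly against Akita vehicle, Car3 was higher by 1.36 in semaglutide Akita (unadjusted p = 0.00582, adjusted p = 0.809).

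The third gene called in Akita vehicle was Gm42047, a predicted long non-coding RNA gene (chromosome 8, 121833247 to 121841178; named after its values were seen). It lay at 4, 4.68, 2.81, 1.67 and 1.12 TPM in semaglutide Akita, at 26.7, 6.54, 3.45, 8.19, 8.12 and 8.77 TPM in Akita vehicle, and at 0.404, 0.448, 1.05, 1.52 and 0.774 TPM in non-diabetic vehicle samples. Semaglutide sample 6 was inside the non-diabetic range and the other 4 were above it. Its difference from non-diabetic vehicle was 1.01 ± 0.46 in semaglutide Akita (interval 0.08 to 1.94; limma adjusted p = 1), and in Akita vehicle it rose by 2.41 ± 0.44 (adjusted p = 0.0242). That call was lost with no filter, with capture number as a covariate, without non-diabetic samples 1, 3 or 6 and without Akita vehicle sample 6. Directly against Akita vehicle, the semaglutide group differed by −1.40 (interval −2.30 to −0.51; adjusted p = 0.801).

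**Figure D2:**
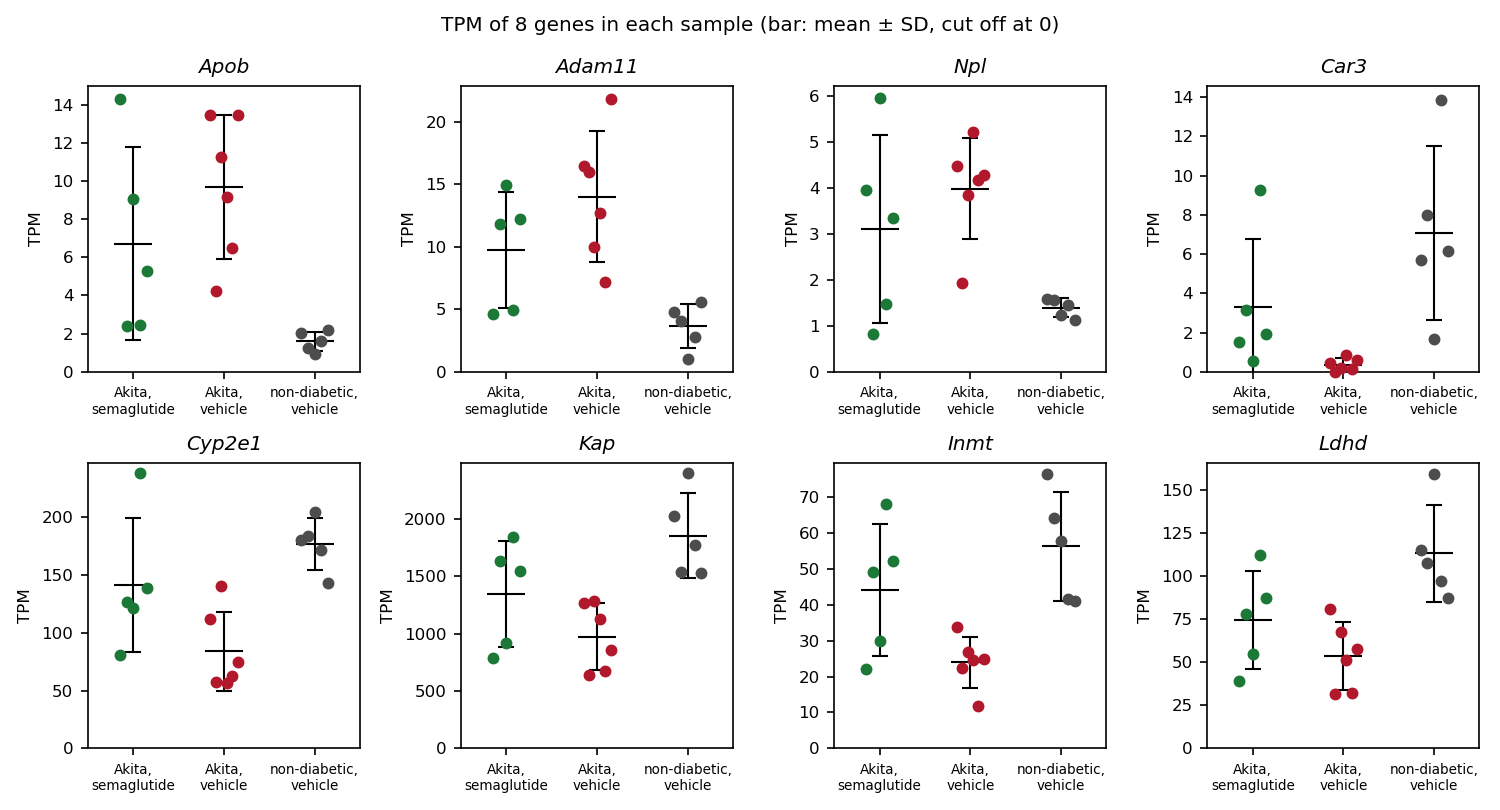
TPM of Apob, Adam11, Npl, Car3, Cyp2e1, Kap, Inmt and Ldhd in each sample of semaglutide Akita, Akita vehicle and non-diabetic vehicle tubules, left to right, with the mean and SD of each group. All semaglutide samples of Apob lie above the non-diabetic samples, and in the other 7 genes these groups overlap.

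Metabolic genes that are always named had lower means in Akita vehicle, with semaglutide means in between. Kap, the kidney androgen-regulated protein (chromosome 6, 133849851 to 133853762), lay at 790, 1633, 920, 1841 and 1543 TPM in semaglutide Akita, against 2025, 1534, 2402, 1773 and 1524 TPM in non-diabetic vehicle samples. Semaglutide samples 2 and 4 were below every non-diabetic sample and the other 3 were inside their range. Akita vehicle samples reached 1279 TPM at most, so all 6 were under the non-diabetic range. The log2 difference of semaglutide Akita from non-diabetic vehicle was −0.52 ± 0.26, but 0.04 with quantile normalization. That scaling gives every library the same values by rank, which can flatten differences of the most abundant genes. Kap stayed lower with median-of-ratios scaling and with rescaling to nuclear protein-coding genes. Cyp2e1, an ethanol- and acetone-oxidising P450, averaged 141 ± 58.2, 83.8 ± 34.4 and 177 ± 22.4 TPM in semaglutide Akita, Akita vehicle and non-diabetic vehicle tubules (SD, n = 5, 6 and 5). Its difference from non-diabetic vehicle was −0.40 in semaglutide Akita (interval −0.96 to 0.16) and −1.15 in Akita vehicle (limma adjusted p = 0.11).

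Ldhd, the mitochondrial D-lactate dehydrogenase, lay at 39.1, 78.2, 54.6, 112 and 87.2 TPM in semaglutide Akita, against 115, 108, 160, 96.9 and 87.1 TPM in non-diabetic vehicle samples. Of the 5 semaglutide samples, 3 were below the non-diabetic range, and the difference was −0.66 ± 0.27 (unadjusted p = 0.0161, limma adjusted p = 1). Inmt, which methylates indole amines, averaged 44.3 ± 18.4 TPM in semaglutide Akita, 24.1 ± 7.13 in Akita vehicle and 56.4 ± 15.1 in non-diabetic vehicle tubules, a difference of −0.41 from non-diabetic vehicle. Cdo1, the first enzyme of cysteine oxidation to taurine, averaged 10.8, 6.66 and 13.9 TPM in the same order. Scd1, the stearoyl-CoA desaturase, averaged 1.59, 0.263 and 2.28 TPM in the same order, and each semaglutide sample lay above the whole Akita vehicle range. Leaving out semaglutide sample 2 moved the difference from non-diabetic vehicle to −0.22 for Cyp2e1, −0.19 for Inmt, −0.34 for Kap and −0.18 for Cdo1. Leaving out sample 5 instead, which lay above the group mean of each of these genes, widened the differences.

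Of the 22 tested androgen-controlled and male-biased genes, 5 were higher and 17 lower in semaglutide Akita than in non-diabetic vehicle tubules, and 0 were called. Among all genes 45.6% were higher and 54.1% lower. The median of the list was −0.38 in semaglutide Akita and −0.79 in Akita vehicle, beside −0.02 and −0.15 over all genes. Odc1, ornithine decarboxylase of polyamine synthesis, averaged 139 ± 114 TPM in semaglutide Akita, 102 ± 58.5 in Akita vehicle and 205 ± 76.4 in non-diabetic vehicle tubules. Slco1a1, an organic anion transporter, averaged 24.3 ± 13, 15.6 ± 8.28 and 40.7 ± 16.1 TPM in the same order. Cyp4a12a, an arachidonic acid hydroxylase that makes 20-HETE, averaged 42.3 ± 19, 26.3 ± 8.51 and 59.2 ± 17.9 TPM in that order (SD, n = 5, 6 and 5). Prlr, the prolactin receptor, had its highest mean in semaglutide Akita, at 1.11 ± 0.764, 0.316 ± 0.28 and 0.345 ± 0.208 TPM in that order.

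The 5 semaglutide samples did not stand alike on these genes. Sample 5 held the most Kap, Cyp2e1, Odc1, Slco1a1, Cyp4a12a, Car3 and Ldhd of its group, and sample 2 the least Kap, Cyp2e1, Odc1, Slco1a1, Cyp4a12a and Ldhd. Sample 2 also held the most Apob of its group. Odc1 was at 52.7 TPM in sample 2 and at 331 TPM in sample 5, against 142 to 332 TPM in non-diabetic vehicle samples. Without any single sample the list's median, less the median of all genes, ran from −0.42 to −0.26, against −0.36 with all samples.

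Late proximal tubule markers, of which Slco1a1 and Slc7a13 are also on the androgen list, had a median of −0.28 in semaglutide Akita and −0.80 in Akita vehicle. Of the 14 tested, 4 were higher and 10 lower in semaglutide Akita than in non-diabetic vehicle tubules. Slc7a13, an aspartate and glutamate transporter of the late segment, averaged 31.3 ± 14 TPM in semaglutide Akita, 16.3 ± 6.24 in Akita vehicle and 36.6 ± 8.92 in non-diabetic vehicle tubules. In tubule samples, fewer cells of a type and less RNA per cell cannot be told apart. Less the median of all genes, the list stood at −0.26, and leaving out single semaglutide samples moved it to −0.10 without sample 4, −0.16 without sample 2 and −0.45 without sample 3. Early proximal tubule markers had a median of 0.01, with 8 of 15 higher and 7 lower.

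**Figure D3:**
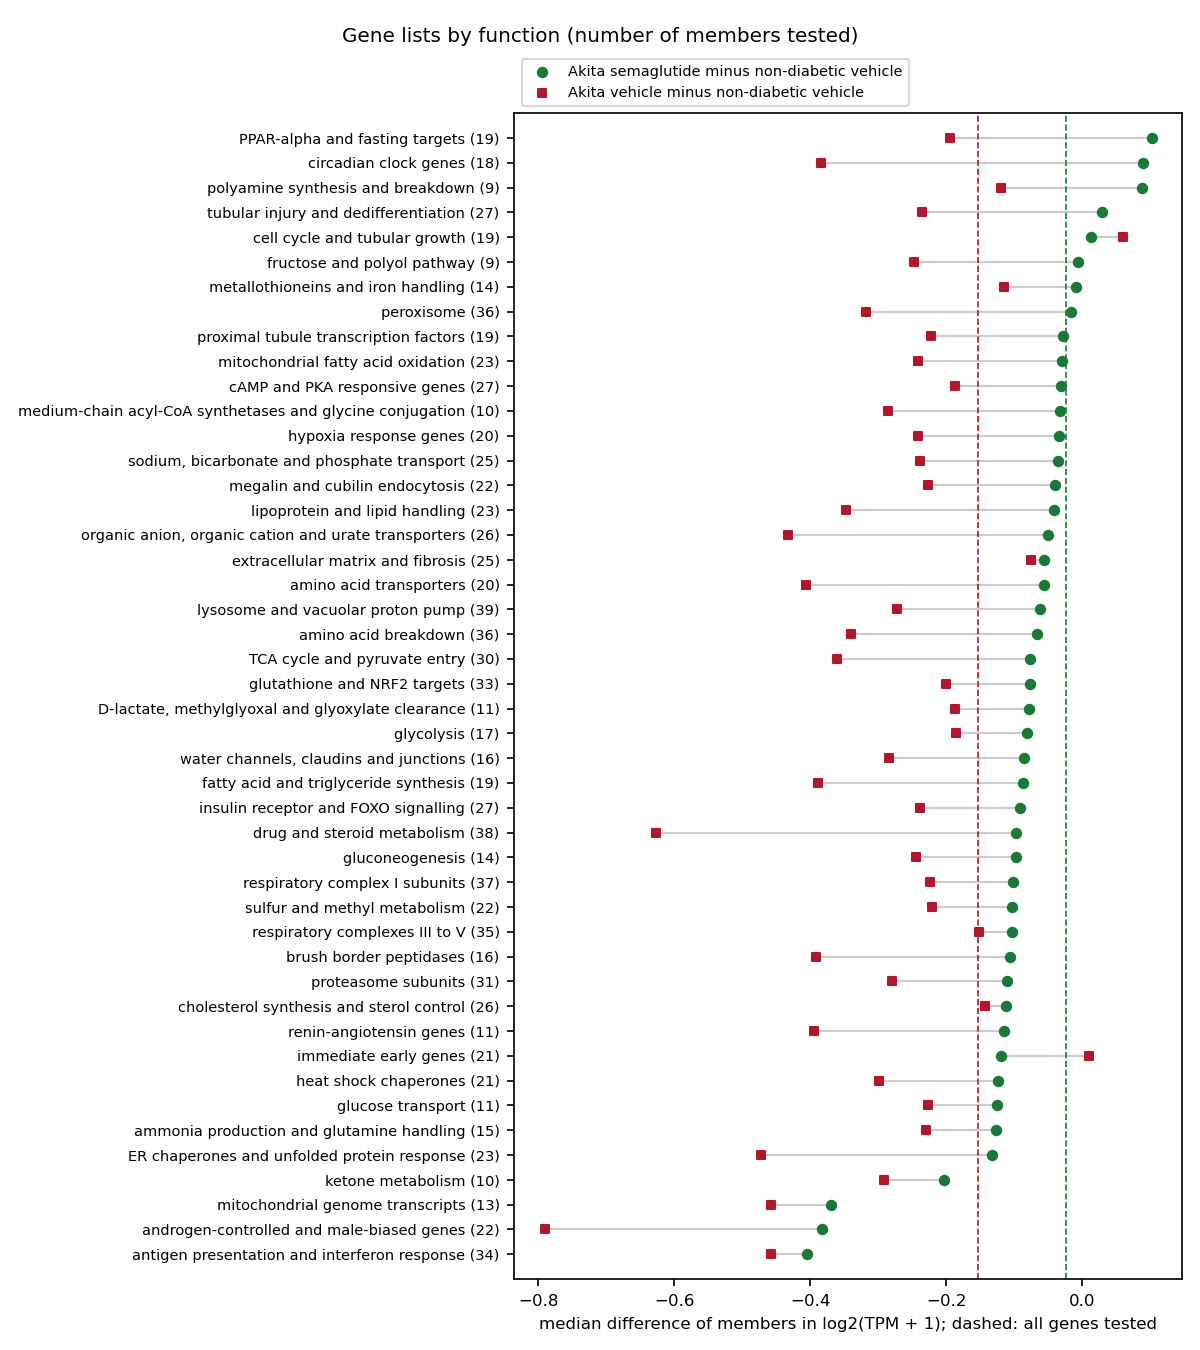
Median log2 difference of each function list in semaglutide Akita minus non-diabetic vehicle (circles) and Akita vehicle minus non-diabetic vehicle (squares), with the number of members tested in brackets. Dashed lines mark the medians of all genes, −0.02 and −0.15, and the 3 lists lowest in semaglutide Akita have medians of −0.40, −0.38 and −0.37, the last (mitochondrial genome transcripts) turning to 0.02 less all genes with quantile normalization.

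Among glucose transporters no gene was called. Slc2a2, which encodes GLUT2, averaged 14.5 ± 4.36, 15.3 ± 3.81 and 16.5 ± 4.12 TPM in semaglutide Akita, Akita vehicle and non-diabetic vehicle tubules (SD, n = 5, 6 and 5). The interval of its difference between semaglutide Akita and non-diabetic vehicle ran from −0.71 to 0.33. Slc2a1, the GLUT1 gene, averaged 1.36, 0.861 and 1.54 TPM in the same order. Of the 11 tested members of the list, 4 were higher and 7 lower in semaglutide Akita than in non-diabetic vehicle tubules, with a median of −0.12.

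Txndc16, a thioredoxin-domain protein of the endoplasmic reticulum (chromosome 14, 45133465 to 45220328), had the lowest p of all genes. It lay at 2.26, 2.27, 1.39, 3.14 and 5.14 TPM in semaglutide Akita, at 1.31, 0.566, 1.34, 0.894, 0.942 and 1.26 TPM in Akita vehicle, and at 1.22, 0.781, 0.534, 1.07 and 0.513 TPM in non-diabetic vehicle samples. All 5 semaglutide samples were above all 11 samples of the vehicle groups. Akita dapagliflozin samples reached 1.61 TPM, above semaglutide sample 4. The log2 difference from non-diabetic vehicle was 1.02 ± 0.22 in semaglutide Akita (interval 0.58 to 1.45; limma adjusted p = 0.278) and 0.17 in Akita vehicle. Txndc16 was called with median-of-ratios scaling (adjusted p = 0.00268), quantile normalization (0.000679), rescaling to nuclear protein-coding genes (0.00401), the number of genes detected as a covariate (0.00141) and without semaglutide sample 4 (0.0433). In the direct comparison with Akita vehicle it was higher by 0.85 (adjusted p = 0.539).

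Other genes with low p and higher values in semaglutide Akita differed in how Akita vehicle stood. Ggps1, geranylgeranyl diphosphate synthase of the mevalonate pathway, averaged 3.95 ± 1.5, 2.12 ± 1.03 and 1.34 ± 0.43 TPM in semaglutide Akita, Akita vehicle and non-diabetic vehicle tubules, and its semaglutide and non-diabetic samples did not overlap. Osbpl5, a sterol and lipid transfer protein, averaged 13 ± 2.3, 5.6 ± 1.42 and 6.56 ± 3.48 TPM in that order. Its semaglutide samples all lay above the Akita vehicle samples, while non-diabetic sample 3, at 12.7 TPM, lay among them. Rsl24d1, a ribosome assembly factor, averaged 4.98 ± 2.5, 1.82 ± 0.702 and 2.08 ± 0.573 TPM in the same order. Star, which brings cholesterol into mitochondria for steroid synthesis, averaged 1.13, 0.266 and 0.332 TPM, and Endou, an endoribonuclease, averaged 1.36, 0.279 and 0.483 TPM. Sssca1 and Dynlt1c completed the 10 ranked genes with differences of 1.00 and 1.08, and reads of Dynlt1c can be shared with near-identical copies of the dynein light chain gene.

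Among the 10 ranked genes that were lower in semaglutide Akita, Apoh, a phospholipid-binding plasma apolipoprotein, had the lowest p. It lay at 0.317, 0.998, 0.403, 0.703 and 0.183 TPM in semaglutide Akita, against 3.11, 2.43, 2.12, 1.42 and 2.02 TPM in non-diabetic vehicle samples, with no overlap. The difference was −1.09 ± 0.26 in semaglutide Akita (interval −1.61 to −0.56; limma adjusted p = 0.8) and −0.85 in Akita vehicle. Plin5, a lipid droplet protein of fat-oxidising cells, also had no overlap, at 0.32 ± 0.181 TPM in semaglutide Akita and 0.908 ± 0.192 TPM in non-diabetic vehicle tubules (SD, n = 5 each). Cyp2d12, a P450 of a multigene family whose members can share reads, averaged 3.22, 4.13 and 11.4 TPM in semaglutide Akita, Akita vehicle and non-diabetic vehicle tubules. Adam19, a metalloprotease, averaged 0.627, 0.839 and 2.55 TPM in the same order.

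Snora31, a small nucleolar RNA that guides pseudouridylation of ribosomal RNA, was listed at 0 TPM in all 5 semaglutide samples, against 17.1, 11.4, 7.81, 5.12 and 9.26 TPM in non-diabetic vehicle samples. Every Akita dapagliflozin sample was at 0 TPM as well, and in Akita vehicle it lay between 0 and 9.71 TPM. It was called as lower only in a fit of the compared groups alone (adjusted p = 6.04e-06). The remaining ranked genes had differences of −0.58 for Bloc1s1 and −1.01 for Hps1, both of lysosome-related organelle biogenesis, −0.89 for Stx1a, a syntaxin of vesicle fusion, −0.68 for Aven, an apoptosis inhibitor, and −1.53 for Hist1h2bk. The last is a histone gene with near-identical copies, and its reads can be split among them.

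**Figure D4:**
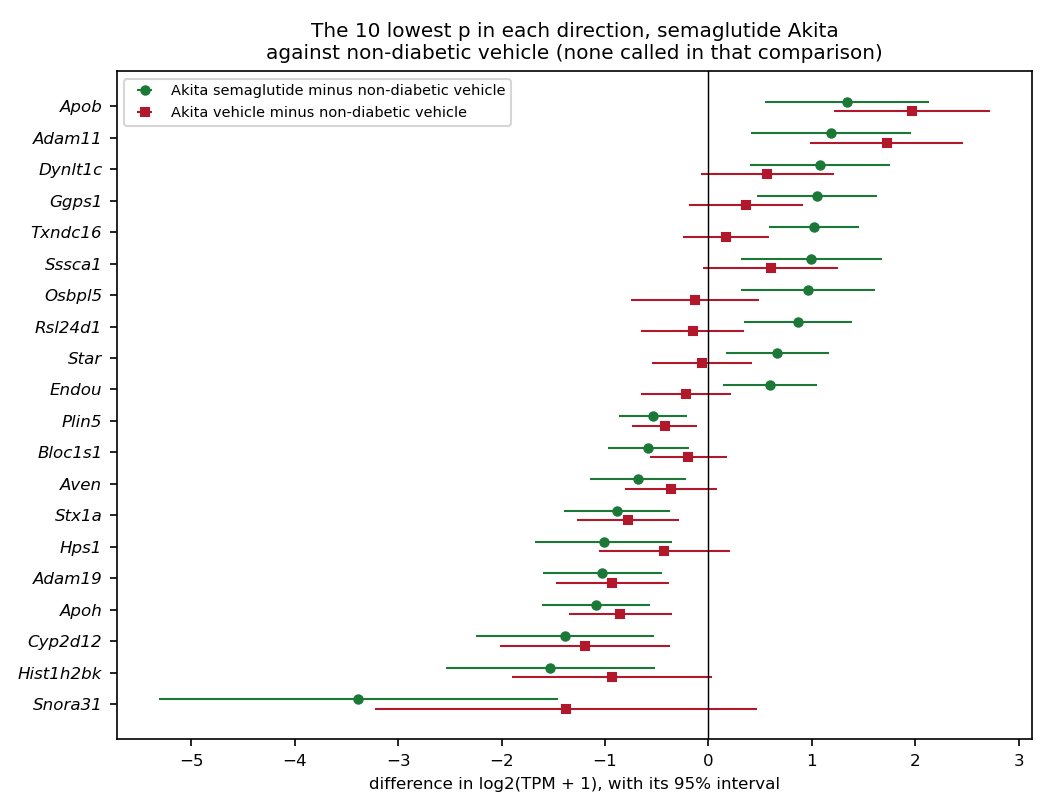
Difference in log2(TPM + 1) and its 95% interval for the 10 genes of lowest p in each direction, in semaglutide Akita minus non-diabetic vehicle (circles) and Akita vehicle minus non-diabetic vehicle (squares). The genes were ranked on the circles, so their distance from 0 is a description, and values run from −3.38 for Snora31 to 1.34 for Apob.

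Antigen presentation and interferon genes were lower in semaglutide Akita than in non-diabetic vehicle tubules in 31 of 34 tested members and higher in 3, with 0 called. The median was −0.40 in semaglutide Akita and −0.46 in Akita vehicle. Most of this distance rested on non-diabetic sample 6, without which the median less that of all genes was −0.07, against −0.38 with it. Irf1, a transcription factor induced by interferon gamma, lay at 1.25, 1.15, 1.62, 0.725 and 3.85 TPM in semaglutide Akita, against 3.37, 5.83, 3.64, 2.74 and 20.2 TPM in non-diabetic vehicle samples. Apart from the 20.2 TPM of sample 6, the non-diabetic values lay between 2.74 and 5.83 TPM, and 4 of 5 semaglutide samples were below them. Its difference was −1.34 with all samples and −0.91 without sample 6.

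The other named members had the same sample at the top. Psmb8, an immunoproteasome subunit, averaged 0.913 ± 0.399 TPM in semaglutide Akita, 0.893 ± 0.525 in Akita vehicle and 3.11 ± 3.31 in non-diabetic vehicle tubules, with 9.01 TPM in non-diabetic sample 6. Tap1, which carries peptides to class I molecules, averaged 0.602, 0.994 and 2.01 TPM in that order. Tap1 and Psmb9, the next immunoproteasome subunit, overlap on opposite strands. The libraries were stranded, but the strand setting of the quantification was not given, so whether their low values hold shared reads is not known. Cd74, the class II invariant chain, lay at 9.33, 6.73, 8.51, 10.9 and 28.4 TPM in semaglutide Akita, against 7.29, 16.8, 12.6, 19.5 and 118 TPM in non-diabetic vehicle samples. B2m, the class I light chain, averaged 20.3, 16.7 and 31.3 TPM in semaglutide Akita, Akita vehicle and non-diabetic vehicle tubules. H2-K1, a class I heavy chain, averaged 20.3, 23.7 and 34.8 TPM (B2m, H2-K1 and Cd74 were chosen after their values were seen).

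**Figure D5:**
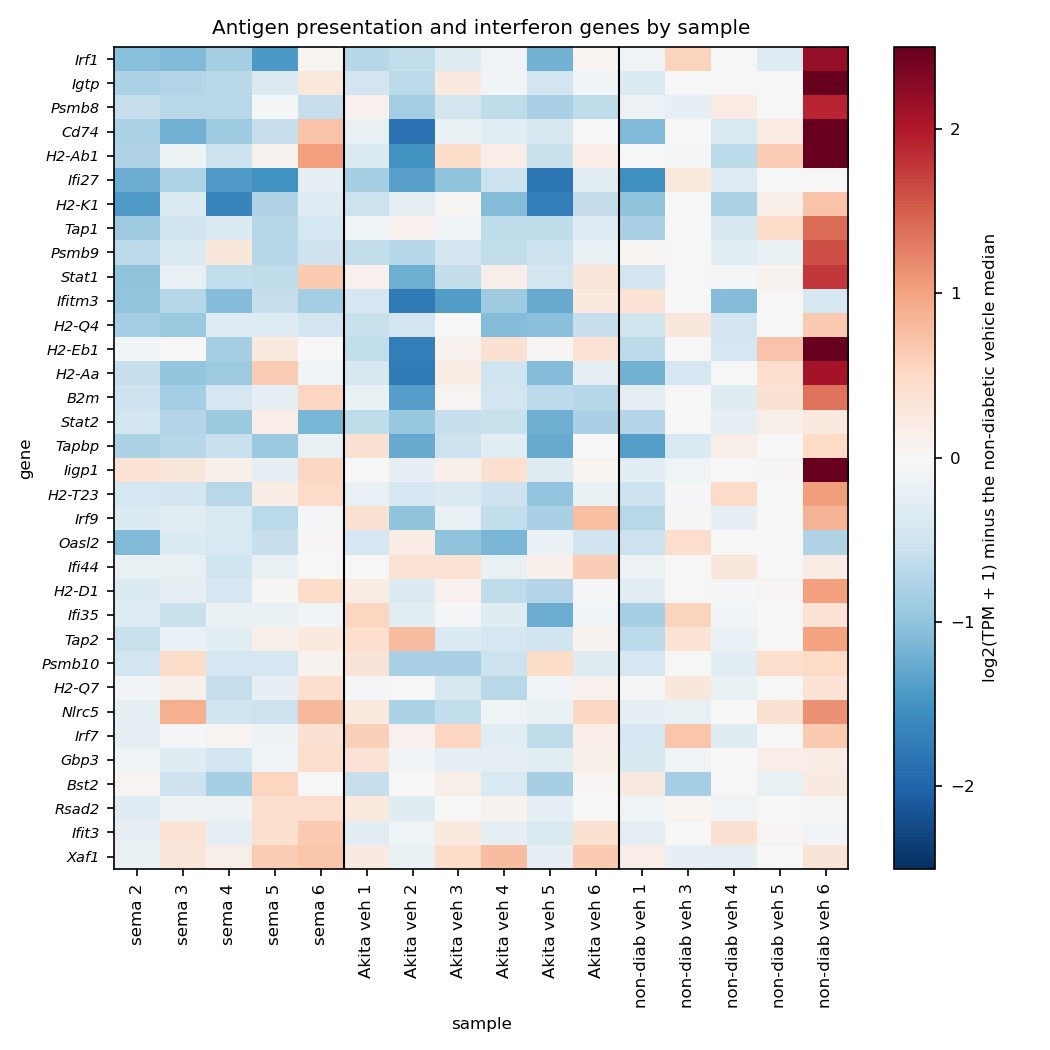
Level of 34 antigen presentation and interferon genes in each sample, as log2(TPM + 1) minus the median of the non-diabetic vehicle samples, with semaglutide Akita on the left, Akita vehicle in the middle and non-diabetic vehicle on the right. Rows run from the lowest difference, Irf1 at −1.34, to the highest, Xaf1 at 0.31, and non-diabetic sample 6 is the reddest column.

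The sum of macrophage and dendritic markers had the same sample at the top, but Cd74 alone made up most of the sum there. Cd74 is also on the antigen presentation list, so this sum does not stand apart from it. Whether the other markers set that sample apart was not examined. Their summed level ran from 11.3 to 36.0 TPM in semaglutide Akita and from 13.8 to 125 TPM in non-diabetic vehicle samples, where sample 6 was highest. All 6 tested markers of 10 in the table were lower in semaglutide Akita, and 4 of the 10 stayed under 1 TPM in all 10 samples. Lymphocyte markers summed to 1.76 ± 0.639 TPM in semaglutide Akita and 3.25 ± 2.14 TPM in non-diabetic vehicle tubules (SD, n = 5 each), and Ms4a1, a B-cell marker, was listed at 0 in all 10. The part of these cells in the antigen presentation values was not tested.

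Of the 13 tested members of the list of mitochondrial genome transcripts, 12 were lower in semaglutide Akita. The median was −0.37 there and −0.46 in Akita vehicle. With quantile normalization, which can flatten differences of the most abundant genes, the median less that of all genes was 0.02. Less that median it was −0.35 on the deposited scale, and −0.20 without non-diabetic sample 5. mt-Atp6, a subunit of ATP synthase, lay at 663, 504, 438, 613 and 715 TPM in semaglutide Akita, against 943, 1270, 734, 1360 and 928 TPM in non-diabetic vehicle samples, with no overlap. Its difference was −0.82 ± 0.31 in semaglutide Akita and −0.82 in Akita vehicle (limma adjusted p = 1 and 0.47). mt-Co3, a cytochrome oxidase subunit, averaged 354 ± 94.1 TPM in semaglutide Akita and 596 ± 193 TPM in non-diabetic vehicle tubules (SD, n = 5 each). mt-Nd6, a complex I subunit encoded on the opposite strand, stood the other way round at 302 ± 98.7 and 213 ± 49.9 TPM. As a share of all TPM, mitochondrial messenger RNA made up 0.856% ± 0.068 in semaglutide Akita and 1.13% ± 0.322 in non-diabetic vehicle libraries (exact permutation p = 0.0714, adjusted p = 0.96 over 21 library measures). The share of mitochondrial ribosomal RNA stood the other way round, at 25.9% ± 5.95 and 23.2% ± 5.35 (exact permutation p = 0.452, adjusted p = 0.96). With 5 against 5 samples that test cannot go below 0.00794.

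Nuclear-encoded respiratory subunits lay nearer to all genes. Complex I subunits were higher in 7 and lower in 30 of 37, and those of complexes III to V higher in 7 and lower in 28 of 35, with medians of −0.10 in both lists. In the citric acid cycle, Fh1, fumarate hydratase, averaged 9.8 ± 1.25 TPM in semaglutide Akita, 9.52 ± 5.28 in Akita vehicle and 16.4 ± 2.78 in non-diabetic vehicle tubules. The semaglutide and non-diabetic samples of Fh1 did not overlap, and the difference was −0.68, with an interval of −1.41 to 0.05. Dlat, a subunit of pyruvate dehydrogenase, averaged 6.56, 7.75 and 10.8 TPM in the same order.

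Some lists low in Akita vehicle stood at the level of all genes or above it in semaglutide Akita. Circadian clock genes had a median of 0.09 in semaglutide Akita and −0.38 in Akita vehicle, with 12 of 18 higher and 6 lower in semaglutide Akita than in non-diabetic vehicle tubules. Less the median of all genes it was 0.11, which leaving out single samples moved between 0.03 without semaglutide sample 5 and 0.24 without sample 2. Dbp, a clock output transcription factor chosen after its values were seen, lay at 26.4, 26.9, 31.3, 25.8 and 37.8 TPM in semaglutide Akita, between 4.26 and 25.8 TPM in Akita vehicle and at 29.8, 34.2, 16.1, 18 and 16.1 TPM in non-diabetic vehicle samples. For Dbp, 4 of 5 semaglutide samples were above the Akita vehicle range and sample 5 was level with its highest value. The direct difference between semaglutide Akita and Akita vehicle was 1.38 (unadjusted p = 0.00134, limma adjusted p = 0.777). Per3, a period gene, averaged 6.53 ± 1.57, 3.27 ± 1.82 and 4.82 ± 2.14 TPM in semaglutide Akita, Akita vehicle and non-diabetic vehicle tubules. The labels give no time of day for tissue collection.

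Chaperones of the endoplasmic reticulum had a median of −0.13 in semaglutide Akita and −0.47 in Akita vehicle, with 6 of 23 higher and 17 lower in semaglutide Akita than in non-diabetic vehicle tubules. Xbp1, a transcription factor of the unfolded protein response, averaged 19.5 ± 9.12, 9.24 ± 4.85 and 14.9 ± 4.4 TPM in semaglutide Akita, Akita vehicle and non-diabetic vehicle tubules. Set directly against Akita vehicle it was higher by 1.02, with an interval of 0.48 to 1.56 (unadjusted p = 0.000369, limma adjusted p = 0.679). Edem1, which helps to degrade misfolded glycoproteins, averaged 10.8 ± 6.28, 8.89 ± 4.26 and 17.4 ± 2.64 TPM in that order, and 4 of 5 semaglutide samples were below the non-diabetic median.

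PPAR-alpha and fasting targets had a median of 0.10 in semaglutide Akita and −0.19 in Akita vehicle, with 14 of 19 higher and 5 lower in semaglutide Akita than in non-diabetic vehicle tubules. The wider lipoprotein and lipid-handling list, which holds Apob and Plin5, had medians of −0.04 and −0.35, with 10 of 23 higher and 13 lower in semaglutide Akita than in non-diabetic vehicle tubules. Set against Akita vehicle, 14 of the 23 were higher and 9 lower, beside 9014 higher (70.7%) and 3728 lower of all 12742 genes. G0s2, an inhibitor of the triglyceride lipase ATGL, averaged 12.9 ± 4.54, 6.05 ± 2.19 and 8.67 ± 2.71 TPM in semaglutide Akita, Akita vehicle and non-diabetic vehicle tubules. Cd36, a fatty acid receptor, averaged 43.2 ± 24.1, 23.4 ± 10.9 and 50.7 ± 12 TPM, and Lpl, lipoprotein lipase, 14.6 ± 5.95, 7.74 ± 5.43 and 17.3 ± 8.29 TPM (both chosen after their values were seen). Direct differences from Akita vehicle were 0.98 for G0s2, 0.83 for Cd36 and 0.94 for Lpl, with limma adjusted p of 0.775, 0.823 and 0.805. Ccnd1, the cell-cycle regulator cyclin D1, stood the other way round at 14.6 ± 8.13, 28.4 ± 7.43 and 17 ± 4.38 TPM, a direct difference of −1.04 (adjusted p = 0.775; chosen after its values were seen).

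Genes ranked by the diabetes contrast of Sglt1 knockout mice, none of whose samples enter the treated comparison, gave a list chosen on other samples. The knockout contrast itself called 0 genes (lowest limma adjusted p = 0.14). Its median over all genes was −0.24, with 2333 higher and 10367 lower. At an unadjusted p under 0.05 it had 52 genes higher and 1784 lower. The 50 genes of lowest p that were higher in Akita knockouts had a median of 0.01 in semaglutide Akita against non-diabetic vehicle, and −0.07 in Akita vehicle. The 50 that were lower had a median of −0.12 in semaglutide Akita, with 14 higher and 36 lower, and of −0.29 in Akita vehicle, with 7 higher and 43 lower. Over all genes the medians were −0.02 and −0.15. Apob was the only 1 of these 100 genes whose semaglutide and non-diabetic samples did not overlap, beside 63 of all 12742 genes.

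Against the Akita dapagliflozin group, semaglutide Akita tubules gave 0 calls and 332 genes at an unadjusted p under 0.05 (2.61%), 84 higher (0.659%) and 248 lower (1.95%), with a median of −0.06. With median-of-ratios scaling these were 545, with 276 higher and 269 lower. Apob averaged 6.71 ± 5.05 TPM with semaglutide and 6.02 ± 4.81 TPM with dapagliflozin, a difference of 0.11 with an interval of −0.68 to 0.90. Kap averaged 1346 ± 463 and 1867 ± 543 TPM in that order, with an interval of −1.03 to 0.03. Scd1 averaged 1.59 ± 1.15 and 0.396 ± 0.271 TPM in that order, with an interval of 0.10 to 1.53 (SD, n = 5 each; limma adjusted p = 1 for each of the 3 genes). These intervals do not show that the drugs acted alike.

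Akita vehicle libraries had the highest mean ribosomal share of the 3 groups. The most abundant ribosomal RNA transcript took 45.6% ± 6.54 of all TPM in semaglutide Akita, 52% ± 4.45 in Akita vehicle and 47.2% ± 5.89 in non-diabetic vehicle libraries, and nuclear protein-coding genes took 9.7% ± 1.7, 8.6% ± 2.02 and 10% ± 1.55 in that order. Median-of-ratios scaling factors ran from 0.838 to 1.30 in semaglutide Akita, from 0.633 to 1.28 in Akita vehicle, where samples 5 and 2 were lowest, and from 0.797 to 1.33 in non-diabetic vehicle libraries. The part of these shares in the differences from Akita vehicle was not tested beyond the rescaled fits. Semaglutide Akita libraries held 10119 ± 574 genes at 1 TPM or more, Akita vehicle libraries 9665 ± 812 and non-diabetic vehicle libraries 10166 ± 577 (SD, n = 5, 6 and 5). Capture numbers in the sample titles ran from 88 to 99 in semaglutide Akita and from 1 to 82 in Akita vehicle. They ran from 4 to 78 in Akita dapagliflozin and from 54 to 84 in non-diabetic vehicle samples. The semaglutide numbers overlapped those of none of these groups, so capture order and group cannot be told apart in any of these pairs. This touches each direct difference from Akita vehicle or Akita dapagliflozin given above. With the number as a covariate over all 48 libraries, 0 genes were called in semaglutide Akita against non-diabetic vehicle and 362 had an unadjusted p under 0.05. Thick ascending limb markers, a nearby tubule segment, summed to 66.6 ± 29.2 TPM in semaglutide Akita, 51.4 ± 38.4 in Akita vehicle and 96.9 ± 45.1 in non-diabetic vehicle samples. Umod and Slc12a1, its defining genes (chosen after their values were seen), averaged 15.4 and 5.87 TPM in semaglutide Akita, against 26.2 and 8.03 TPM in non-diabetic vehicle tubules, and their part in the other results was not tested. Podocyte and endothelial sums were 19.8 and 56.3 TPM in semaglutide Akita, against 21.9 and 68.4 TPM in non-diabetic vehicle tubules.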

How the data were processed

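Laser-captured early proximal tubules were sequenced as stranded total RNA, from 0.5 ng per library with DV200 (the share of longer RNA fragments) above 30%, per the labels' protocols. The authors deposited TPM per gene. Salmon, MultiQC 1.8 and GRCm38 are named per the submitters' processing notes, while Salmon's version and annotation were not given in the sources used here. The table's name says that outliers were taken out, on unstated grounds, which can narrow the spread and lower p-values. Of 54 labelled samples 48 had a column, and 6 were not analysed here, semaglutide sample 1 and non-diabetic vehicle sample 2 among them. TPM keeps no depth, so the depth is unknown and no counting error is given. Because ribosomal RNA is included, the TPM of a gene also depends on the share left by that RNA, which took 45.6% of semaglutide Akita, 52% of Akita vehicle and 47.2% of non-diabetic vehicle libraries in 1 transcript.

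The capture number linked each column to its sample, and the labels gave the groups. Rows were annotated with GENCODE positions on GRCm38. Genes reaching 1 TPM in 5 or more columns were fitted as log2(TPM + 1), which understates the change of low genes, with limma 3.58.1 in R 4.3.3 (9 groups, 39 residual degrees of freedom, trended and robust variances, statmod 1.5.0). The fit was tested on simulated data. Two-sided p-values were adjusted by Benjamini-Hochberg over 12742 genes and called under 0.05. Library measures were compared with exact permutation tests in scipy 1.17.1. Lists are described by counts and medians, with no test. Members and lists were chosen with earlier results of these data known.

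The text names the 10 genes of lowest p in each direction (predicted genes, clones and pseudogenes left out), up to 4 of lowest p in each function list, and 16 genes always named; others are marked where they appear. Alternatives were other pseudocounts, filters, scalings, covariates and variance models, a fit of the compared groups alone, and leaving out each library.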

Additional observations from a re-analysis of the deposited data

Results flagged for a closer look

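In 261 groups of 5 or 6 samples examined, 17 had a highest or lowest sample far from the rest, and chance alone flags about 1 in 20 groups. In semaglutide Akita these were Bloc1s1 in sample 4 (16.6 TPM, the others at most 10.2), Psmb8 in sample 5 (1.61 TPM, the others at most 0.809), the summed thick ascending limb markers in sample 4 (20.6 TPM, the others at least 67.3) and the summed macrophage and dendritic markers in sample 6 (36.0 TPM, the others at most 15.3). In Akita vehicle, sample 2 was lowest for Dynlt1c (0 TPM), Npl (1.93 TPM), Cd74 (3.94 TPM) and the macrophage sum (5.61 TPM). Akita vehicle sample 3 was highest for Apoh (3.21 TPM), Cyp2d12 (9.59 TPM) and the summed neutrophil markers (0.426 TPM). Sample 6 of that group was highest for Star (0.827 TPM), and sample 5 lowest for mt-Nd6 (117 TPM). In non-diabetic vehicle tubules, sample 6 was highest for Psmb9 (4.06 TPM, the others at most 0.707) and Psmb8 (9.01 TPM, the others at most 2.08), sample 3 for Osbpl5 (12.7 TPM) and sample 1 for Bloc1s1 (19.2 TPM).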

How the results depend on the processing

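In semaglutide Akita against non-diabetic vehicle, 0 genes were called on the deposited scale and 1 with median-of-ratios scaling, quantile normalization, nuclear protein-coding rescaling, the number of genes detected as a covariate (Txndc16 in each) or the compared groups alone (Snora31). Leaving out each sample gave 0 to 1, the 1 being Txndc16 without semaglutide sample 4. Its log2 difference was then 1.17, and it ran from 1.01 to 1.04 in the other 4 fits. Genes at an unadjusted p under 0.05 numbered 624 under each of the 3 scalings, of which 576 to 580 were shared between any 2 of them, and 1556 of 29271 with no filter, against 338 of 12742. In Akita vehicle against non-diabetic vehicle, 3 were called, against 0 with no filter, 5 with a TPM of 1 in 24 columns, 12 with median-of-ratios scaling, 8 with quantile normalization, 11 with nuclear rescaling, 6 with the compared groups alone, 1 with the capture number as a covariate and 0 to 6 when each sample was left out. Semaglutide against dapagliflozin gave 0, and 0 to 1 when each sample was left out (Pkia, −1.19, without dapagliflozin sample 5). Semaglutide Akita against Akita vehicle gave 0 under every alternative run. Signs turned for Slc5a1 (−0.32 to 0.032 when each sample was left out, above 0 without non-diabetic sample 3), Slc5a2 (−0.096 with capture number; −0.12 to 0.17 when each was left out, below 0 without semaglutide sample 6 or non-diabetic samples 4 or 6), Kap (0.037, quantile normalization) and Lpl (−0.39 to 0.014, above 0 without non-diabetic sample 4), all uncalled. The cause was not tested. No paired analysis was possible because the labels carry no replicate numbers and sample numbers follow record order only. Depth cannot be read from TPM, so what it limits is unknown.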

Other observations

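Amino acid breakdown genes were higher in semaglutide Akita than in non-diabetic vehicle tubules in 9 of 36 and lower in 27, those of medium-chain acyl-CoA synthesis and glycine conjugation higher in 4 of 10 and lower in 6, and those of the peroxisome higher in 17 of 36 and lower in 19. No gene of these lists was called. The first and second lists each had 1 gene whose semaglutide samples all lay above the non-diabetic ones, and the third had 0, beside 0.181% of all genes. The gene of lowest p in each list was among its higher ones. Pccb, a subunit of propionyl-CoA carboxylase, which handles breakdown products of branched-chain amino acids, lay at 30.1, 33.5, 33.9, 33 and 39.9 TPM in semaglutide Akita, against 17.5, 28.5, 25.9, 22.8 and 19 TPM in non-diabetic vehicle samples. Glyat, which joins glycine to benzoyl-CoA, averaged 49.5 ± 6.03 TPM in semaglutide Akita, 34.7 ± 5.01 in Akita vehicle and 35.2 ± 2.91 in non-diabetic vehicle tubules (SD, n = 5, 6 and 5). In both genes every semaglutide sample lay above every non-diabetic sample, with log2 differences of 0.58 and 0.48 (limma adjusted p = 1 for both). Pxmp2, a peroxisomal membrane channel, averaged 11.3 ± 2.3, 7.89 ± 2.4 and 6.2 ± 3.7 TPM in the same order, and its difference of 0.96 became 0.57 without non-diabetic sample 6.

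Prkar1a, the regulatory subunit of protein kinase A that holds the enzyme inactive, averaged 11.4 ± 3.59 TPM in semaglutide Akita, 13.6 ± 4.91 in Akita vehicle and 19.1 ± 7.6 in non-diabetic vehicle tubules, a difference of −0.66 from non-diabetic vehicle (interval −1.26 to −0.06; limma adjusted p = 1). The list of genes responsive to cyclic AMP and protein kinase A, to which it belongs, had 12 of 27 members higher and 15 lower, with a median of −0.03 beside −0.02 over all genes.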
